A study of Mus musculus with 34 samples.

Results

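Amino acid transporter genes were followed across 4 populations of mouse mammary epithelial cells (MECs) sorted by CD24, CD29 and a histone 2B-GFP reporter. The genes are those whose symbol on the array belongs to the solute carrier families Slc1, Slc3, Slc6, Slc7, Slc36, Slc38 or Slc43. They have 120 of the 45281 probes of the array and 58 of its 19057 gene symbols, and 33 of the 58 have more than 1 probe. The measurements are 34 arrays: 9 of GFP+ CD24+/CD29lo, 10 of GFP- CD24+/CD29lo, 9 of GFP+ CD24+/CD29+ and 6 of GFP- CD24+/CD29+ cells. All came from double transgenic MMTVrtTA/H2BGFP virgin females of 4 weeks. The H2BGFP line was of CD1 background, backcrossed to FVB, and was then crossed with MMTVrtTA mice on FVB. All mice were kept on doxycycline, so that GFP- cells carry the same transgenes and drug as GFP+ cells. The reporter is switched on by a reverse tetracycline transactivator under the mouse mammary tumor virus promoter, which was active in only some MECs of these mice. CD29, integrin beta-1, is abundant on basal and scarce on luminal MECs. One of the 58 symbols, Slc7a6os, is not a transporter; it lies on the other strand beside Slc7a6 and matches the name pattern alone. The pattern also fits Slc3a1, Slc6a16, Slc7a5, Slc36a4 and Slc38a6, which were not analysed here.

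Amino acids cross the plasma membrane on carriers that differ in what they take and in what drives them. Slc1 proteins import glutamate or small neutral amino acids with sodium, and Slc38 proteins import glutamine and other neutral amino acids in the same way. Slc6 proteins are sodium- and chloride-driven and carry neurotransmitters, taurine, creatine, glycine or neutral amino acids. Slc7 holds the cationic amino acid transporters and the exchanger light chains, which need the Slc3 heavy chains to reach the membrane. Slc36 proteins are coupled to protons, and Slc43 includes carriers of large neutral amino acids. In the mammary gland such carriers feed protein synthesis during growth and milk production.

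Array signals were background-corrected, quantile-normalized and put on a log2 scale, and a probe counts as detected where its signal has a detection p under 0.05. Detected probes made up between 26.3% and 46.7% of an array. The lowest share was that of GFP+ CD24+/CD29lo replicate 22. Replicates 1 to 12 and replicates 13 to 34 form 2 sets of arrays of unstated origin, told apart by the median of each processed column and absent from the labels, and all 6 GFP- CD24+/CD29+ arrays are in the second set. The labels do not say whether samples came from separate animals, so p-values measure the spread between samples. Of the lineage markers, 7 of 8 basal genes in GFP- cells and 8 of 8 in GFP+ cells were higher in the CD24+/CD29+ gate, and 7 of 7 luminal genes with a probe were lower there in both.

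Of the 58 genes, 31 had a probe detected on 50% or more of the arrays in 1 population or more, and 11 in every population. Slc3a2, the heavy chain of the exchangers, Slc38a2, Slc6a6, Slc6a8, Slc6a15 and Slc7a6os were detected on all 34 arrays. Another 27 genes did not reach 50% in any population, and 6 of them (Slc1a7, Slc6a5, Slc6a20a, Slc6a20b, Slc7a10 and Slc38a7) were detected on no array. Slc1a5, the glutamine carrier ASCT2, is among the 27: its 5 probes gave 1 detection on 34 arrays. Slc7a4 was detected on all 10 GFP- CD24+/CD29lo arrays and on 0 of 9 GFP+ CD24+/CD29+ arrays.

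**Figure D1:**
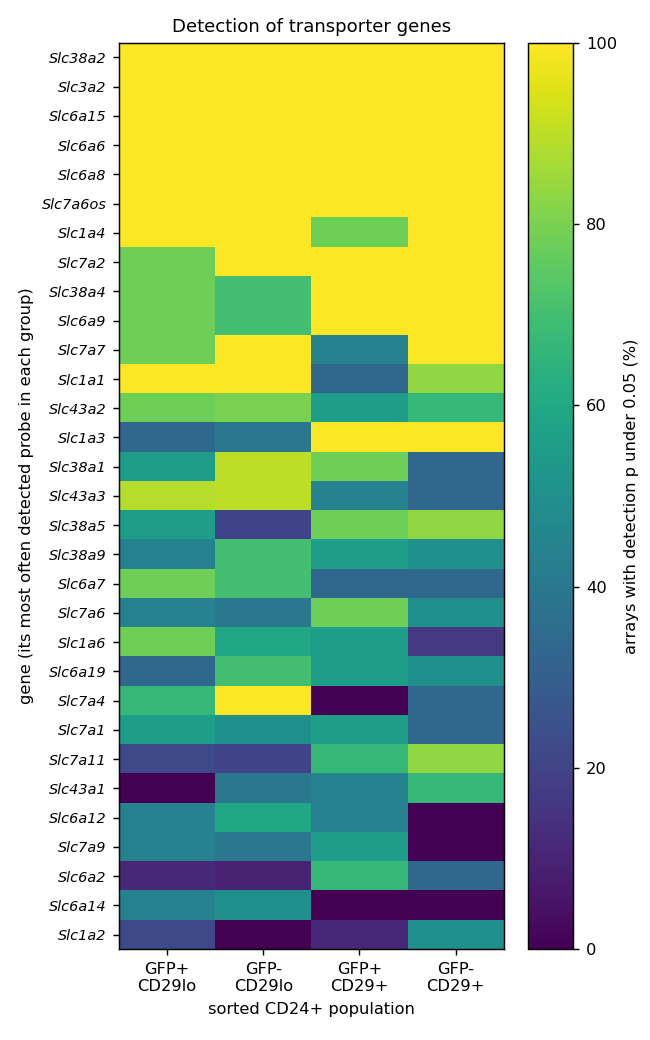
Percent of arrays with detection p under 0.05 (color, 0 to 100) for the 31 genes (rows) that reach 50% in at least 1 of the 4 sorted CD24+ populations (columns). Each value is from the probe of the gene detected most often in that population, so the probe can differ between columns. The top 6 rows are detected on all arrays, and Slc7a4, Slc1a3 and Slc7a11 differ in detection between the CD29 gates. Slc1a1 differs mainly in GFP+ cells, with 9 CD24+/CD29lo and 3 CD24+/CD29+ arrays detected, beside 10 and 5 in GFP- cells.

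The first comparison was of GFP+ with GFP- cells within the CD24+/CD29lo gate, where the arrays of that gate were normalized on their own. The glutamate transporter gene Slc1a1 and the creatine transporter gene Slc6a8 were higher in GFP+ cells, and the arginine and lysine transporter gene Slc7a2 was lower. These were 3 of 74 tested probes of the transporters (4.05%), from 3 of 49 genes, beside 1.03% of all 31919 tested probes (limma, adjusted p under 0.05 over all probes). By direction, 2 were higher and 1 lower, beside 0.229% and 0.802% of all tested probes. The median difference of the 74 probes was 0.04 (log2), beside 0.01 for all probes.

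Slc1a1, which carries glutamate, aspartate and cysteine into cells, had levels of 9.60 to 11.52 (log2, median 10.73, n = 9) in GFP+ and 7.94 to 10.61 (median 9.02, n = 10) in GFP- CD24+/CD29lo cells on probe ILMN_1229397. The populations overlapped, but 7 of 9 GFP+ arrays lay above every GFP- array. The difference was 1.50 (log2, SE 0.31, limma adjusted p = 0.0156). When all 34 arrays were normalized and fitted together it was 1.51 and did not pass (adjusted p = 0.286), while Slc6a8 and Slc7a2 passed there too. A second probe, ILMN_1225873, differed by 1.69 (SE 0.41) and did not pass (adjusted p = 0.0544). Another, ILMN_2566367, which maps to a different transcript record, was detected on 1 array of each CD24+/CD29lo population and differed by 0.06 (SE 0.11, adjusted p = 0.913).

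Slc7a2 codes for the cationic amino acid transporter CAT-2, which imports arginine, lysine and ornithine. Probe ILMN_2642349 passed detection on 6 of 9 GFP+ and 10 of 10 GFP- CD24+/CD29lo arrays. Its levels were 4.57 to 7.65 (median 6.19) in GFP+ cells and 6.67 to 9.86 (median 8.33) in GFP- cells, and 8 of 10 GFP- arrays lay above every GFP+ array. The gene fell by 2.33 in GFP+ cells (log2, SE 0.47, limma adjusted p = 0.0156). Of the 4 other probes of Slc7a2, 3 were tested, with differences of -1.09, -1.27 and -1.42 that did not pass (adjusted p = 0.151, 0.202 and 0.163).

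Slc6a8 was detected on all arrays. Its levels were 6.70 to 8.22 (median 7.47, n = 9) in GFP+ and 5.92 to 7.04 (median 6.59, n = 10) in GFP- CD24+/CD29lo cells, with 8 of 9 GFP+ arrays above every GFP- array. The difference was 0.90 (log2, SE 0.19, limma adjusted p = 0.0231). Its level in GFP+ cells lay between those of GFP- CD24+/CD29lo cells and of both CD24+/CD29+ populations.

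**Figure D2:**
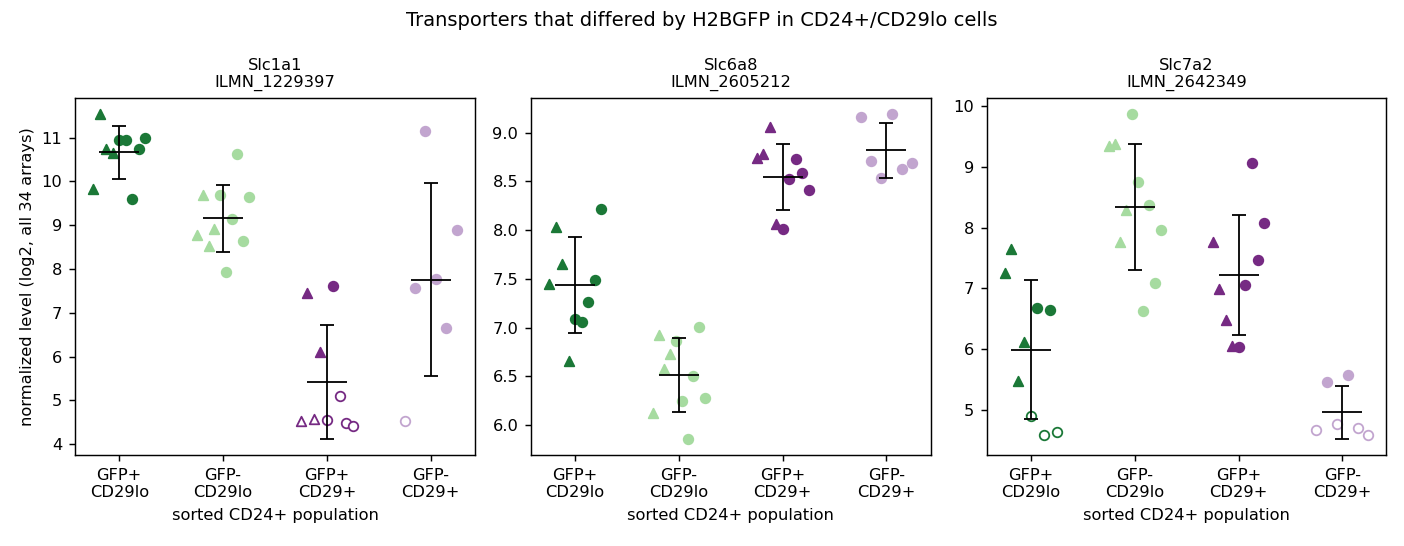
Normalized level (log2, all 34 arrays normalized together) of Slc1a1, Slc6a8 and Slc7a2 on each array of the 4 sorted CD24+ populations. Triangles are replicates 1 to 12 and circles replicates 13 to 34, hollow symbols are not detected, and the horizontal bar with whiskers is the mean ± SD; the Slc7a2 means run 5.99, 8.34, 7.22 and 4.96 from left to right.

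Within either array set the 3 differences had the same sign but did not pass on their own. In replicates 1 to 12 they were 1.51 for Slc1a1, 0.71 for Slc6a8 and -1.78 for Slc7a2 (adjusted p = 0.0903, 0.239 and 0.144). In replicates 13 to 34 they were 1.46 for Slc1a1, 1.05 for Slc6a8 and -2.70 for Slc7a2 (adjusted p = 0.477, 0.276 and 0.206). With the set as a term in the model all 3 passed, where 526 of all 31919 tested probes did. Markers of other cells moved in the same comparison. The basal marker Acta2 was 2.61 higher in GFP+ CD24+/CD29lo cells (SE 0.61, adjusted p = 0.0437), the other 7 basal markers did not pass, and the summed linear level of the 8 markers ran from 1108 to 6129 (median 2694) in GFP+ and from 583 to 2699 (median 1557) in GFP- cells, beside 31686 to 56333 in the CD24+/CD29+ arrays. Slc6a8 and Acta2 are both higher in CD24+/CD29+ cells, while Slc1a1 is lower there. Of 7 tested luminal markers 1 passed: Esr1, the estrogen receptor of mature luminal cells, fell by 2.74 (SE 0.43, adjusted p = 0.00154), and the median over the 7 was 0.07. Of 4 tested adipocyte markers 1 passed, Fabp4, which fell by 2.13 (adjusted p = 0.0129; median -0.20). Of 5 tested macrophage markers 1 passed, Cd14, which was 0.93 higher (adjusted p = 0.0286; median -0.04) and is also known from luminal progenitors. The sort had removed cells positive for CD45, Ter119 or CD31. Ptprc, the gene of CD45, was detected on no array. Pecam1, the gene of CD31, was detected on no GFP+ CD24+/CD29+ array but on at least 1 array of each other population. At 50% of arrays, 1 of 5 lymphoid markers was present in GFP- CD24+/CD29+ cells and 1 of 2 erythroid markers in GFP- CD24+/CD29lo cells. Of the 5 macrophage markers, 1 or 2 reached 50% in each population. The part of these markers in the transporter differences was not tested; in bulk samples fewer cells of a type and less RNA per cell cannot be told apart.

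Other transporters in this comparison gave values that did not pass. Slc38a1, the sodium-coupled glutamine transporter SNAT1, had detected signal on 8 of 10 GFP- but 0 of 9 GFP+ CD24+/CD29lo arrays with probe ILMN_1219573. Its mean was thus at least 2.00-fold lower in GFP+ cells, and the difference did not pass (limma adjusted p = 0.153). Where a population had no detected array, a fold is a bound of this kind on the difference of means. The dim side is set to the lowest signal still detected on each array, and the bright mean keeps its undetected arrays. Such a bound takes no account of the spread between arrays. Another pair of Slc38a1 probes, ILMN_2558167 and ILMN_2736140, differed by -1.36 (SE 0.46, adjusted p = 0.243) and -0.76 (SE 0.39, adjusted p = 0.548). In replicates 1 to 12 alone, ILMN_1219573 and ILMN_2558167 of Slc38a1 and ILMN_3038743 of Slc7a2 were the 3 transporter probes that passed. None of the 3 probes of the full comparison did. Over all 31318 probes tested there, 274 passed. Slc7a4, a family member of the cationic carriers by sequence, differed by -1.18 (SE 0.41, adjusted p = 0.26), and the taurine transporter gene Slc6a6 by -0.84 (SE 0.35, adjusted p = 0.403). Slc3a2 differed by 0.16 (SE 0.21, adjusted p = 0.858).

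Within the CD24+/CD29+ gate, no transporter probe passed between GFP+ and GFP- cells: 0 of 77, beside 0.0305% of all 32737 tested probes (limma; 0.00611% higher and 0.0244% lower). At an unadjusted p under 0.05 there were 10 of the 77 (13%), beside 8.76% of all probes. The methods' t-test also called 0 after Benjamini-Hochberg adjustment, both of the 77 and of all 32737. Probe ILMN_2642349 of Slc7a2 gave a signal above background on 9 of 9 GFP+ and 2 of 6 GFP- arrays, at 5.95 to 9.07 (median 7.02) and 4.60 to 5.50 (median 4.73). These levels did not overlap, and the difference of 2.24 (SE 0.42) did not pass (adjusted p = 0.148). Slc1a1 passed detection on 3 of 9 GFP+ and 5 of 6 GFP- arrays with probe ILMN_1229397, at 4.42 to 7.60 and 4.54 to 11.16, and differed by -2.34 (SE 0.85, adjusted p = 0.548). Slc6a8 differed by -0.28 (SE 0.17, adjusted p = 0.644).

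The difference of the GFP difference between the gates, CD24+/CD29lo minus CD24+/CD29+, was tested in 1 model of all 34 arrays. Of 87 tested transporter probes 3 passed (3.45%), beside 0.27% of all 35870 tested probes, and they belong to the same genes. By sign 2 were positive and 1 negative, beside 0.0781% and 0.192% of all probes. It was -4.61 for Slc7a2 (log2, SE 0.67, limma adjusted p = 3.15e-04), 3.84 for Slc1a1 (SE 0.85, adjusted p = 0.0349) and 1.20 for Slc6a8 (SE 0.27, adjusted p = 0.0425). Slc7a2 was thus lower with GFP in one gate and had a positive difference in the other, and Slc1a1 the reverse. For Slc1a1 this rests on ILMN_1229397: ILMN_1225873 was detected on 0 of 15 CD24+/CD29+ arrays and its value of 1.77 (SE 0.50) did not pass (adjusted p = 0.175). In replicates 13 to 34 alone, Slc7a2 passed (-5.27, adjusted p = 0.0119), and Slc1a1 (4.01, adjusted p = 0.507) and Slc6a8 (1.45, adjusted p = 0.167) did not.

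The probes of Slc7a2 disagree. ILMN_2642349 and the 3 probes ILMN_1219442, ILMN_2770725 and ILMN_2483836 are annotated to the same RefSeq transcript, and ILMN_3038743 to another. In CD24+/CD29+ cells, ILMN_2642349 had a GFP difference of 2.24, while ILMN_1219442, ILMN_2770725 and ILMN_3038743 had -0.18, -0.94 and 0.02. In GFP- CD24+/CD29+ cells, ILMN_2770725 was detected on 6 of 6 arrays and ILMN_2642349 on 2. ILMN_2483836 was detected on 1 of 34 arrays. The difference between the gates passed for 1 probe of this gene, and the other 3 tested gave -0.88, -0.27 and -1.45 (adjusted p = 0.616, 0.912 and 0.489).

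**Figure D3:**
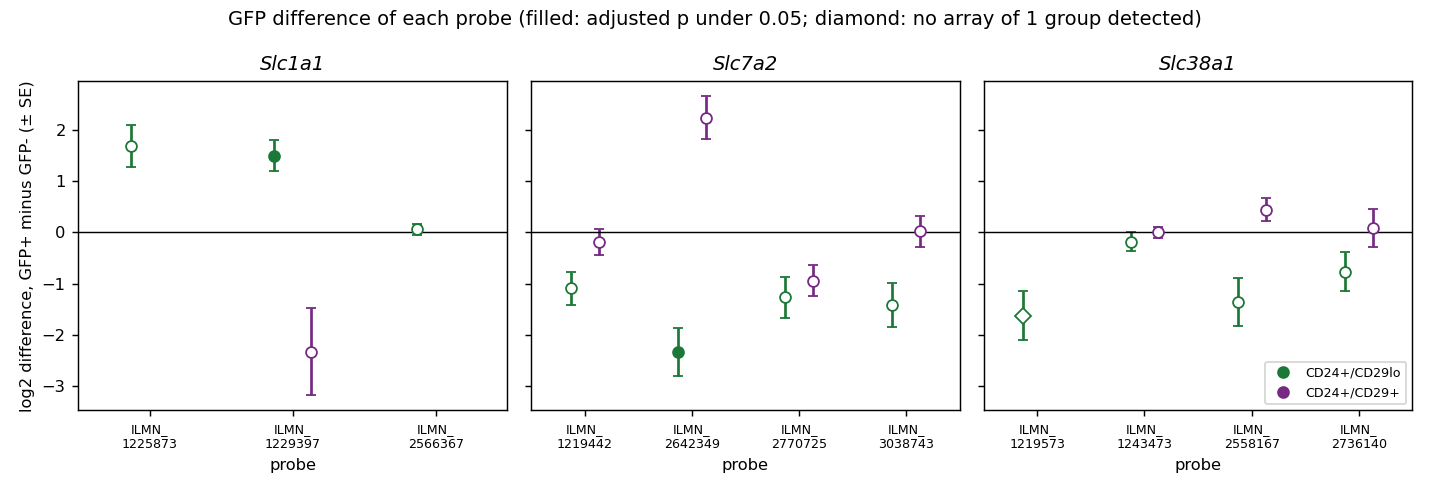
Log2 difference of GFP+ minus GFP- cells (y axis, with SE) for each tested probe of Slc1a1, Slc7a2 and Slc38a1 (x axis) within the CD24+/CD29lo gate (green) and the CD24+/CD29+ gate (purple). Filled symbols pass, at 1.50 for Slc1a1 and -2.33 for Slc7a2; the diamond marks a probe detected on no array of 1 population, whose plotted size depends on the background.

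The CD29 gates were compared within GFP- and within GFP+ cells, in the model of all 34 arrays. In GFP- cells, 22 of 87 transporter probes differed (25.3%), beside 10.3% of all 35870 tested probes. They come from 18 genes: 14 probes were higher in CD24+/CD29+ cells and 8 lower, beside 5.29% and 5.04% of all probes. In GFP+ cells, 12 of 87 probes from 10 genes differed (13.8%), beside 10.4% of all probes, with 8 higher and 4 lower, beside 5.53% and 4.86%. Both comparisons called 10 probes of 9 genes. The median difference of the 87 probes was 0.07 in GFP- and 0.05 in GFP+ cells, beside 0.02 and -0.01 for all probes. Counted by 1 probe per gene, 3 of 16 tested Slc6 genes were higher and 0 lower in each comparison. Of 9 Slc38 genes, 3 were higher in GFP- and 2 in GFP+ cells, with 0 lower in either by that count. Of 6 Slc1 genes, 2 were higher and 1 lower in GFP- cells and 1 was higher and 2 lower in GFP+ cells. Of 11 Slc7 genes, 2 were higher and 2 lower in GFP- cells and 1 was lower in GFP+ cells, and 1 of 3 Slc43 genes was lower, in GFP- cells. None of 3 Slc36 genes nor Slc3a2 passed. By any probe, 4 Slc1, 5 Slc6 and 4 Slc38 genes passed in GFP- cells, and 3, 4 and 2 in GFP+ cells. Through probes that do not stand for the gene, Slc38a1 was lower in GFP- cells and Slc6a15 higher in both comparisons.

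**Figure D4:**
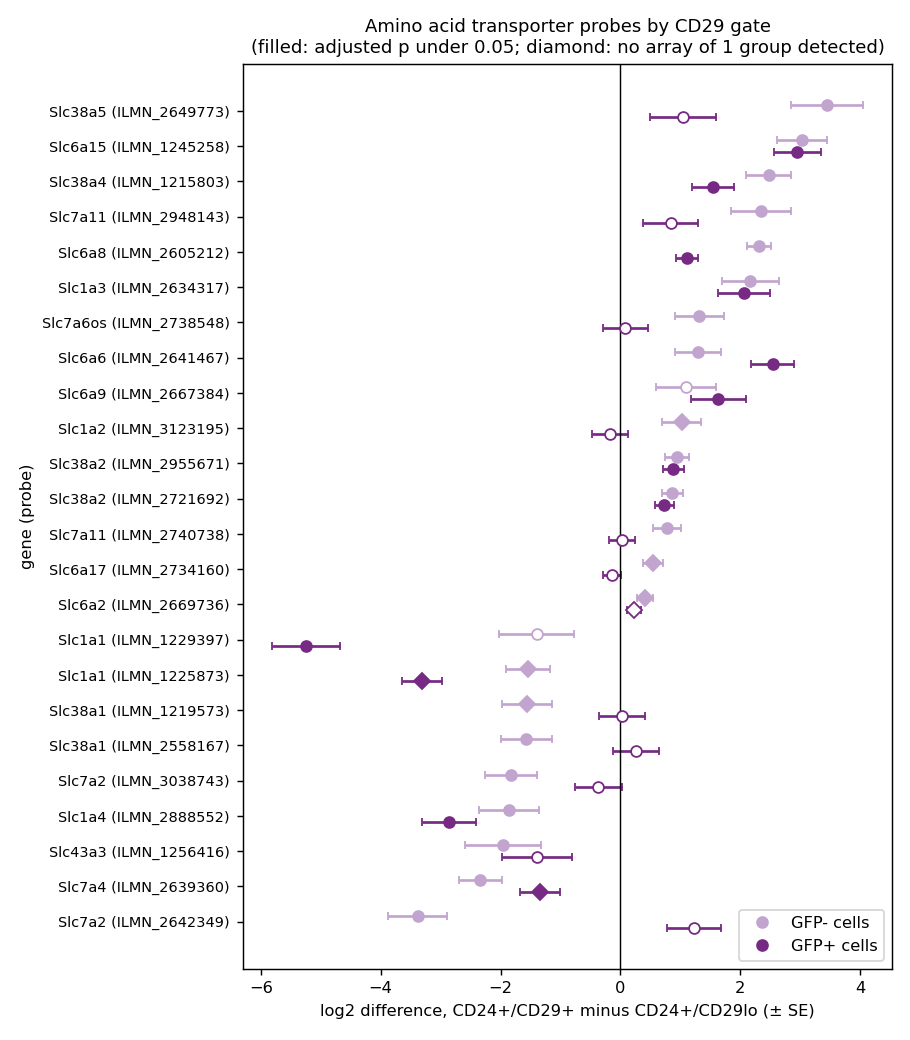
Log2 difference of CD24+/CD29+ minus CD24+/CD29lo cells (x axis, with SE) for the 24 transporter probes (y axis) that passed in at least 1 gate comparison, in GFP- cells (light) and GFP+ cells (dark). Filled symbols pass; diamonds are probes detected on no array of 1 population, whose plotted size depends on the background. Slc6a15 and Slc6a8 are right of 0 and Slc1a4 and Slc7a4 left of 0 in both, while Slc7a2 is at -3.38 in GFP- and at 1.23, not passed, in GFP+ cells.

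Glutamate transporters went both ways. Slc1a1 was the transporter with the largest fitted difference in GFP+ cells: probe ILMN_1229397 ran from 9.61 to 11.54 (median 10.74, n = 9) in CD24+/CD29lo and from 4.40 to 7.62 (median 4.58, n = 9) in CD24+/CD29+ cells, with no overlap. The difference was -5.24 (SE 0.57, limma adjusted p = 1.68e-08). ILMN_1225873 was detected on 9 of 9 and 0 of 9 of these arrays, at least 6.86-fold lower (adjusted p = 3.61e-09). In GFP- cells ILMN_1225873 was detected on 9 of 10 CD24+/CD29lo and 0 of 6 CD24+/CD29+ arrays, at least 1.97-fold lower (adjusted p = 0.00378), while ILMN_1229397 ran from 4.52 to 11.15 in GFP- CD24+/CD29+ cells and its difference of -1.40 (SE 0.62) did not pass (adjusted p = 0.171). The summed linear level of 7 luminal markers ran from 4541 to 8074 on those 6 arrays, beside 3037 to 6402 on the GFP+ CD24+/CD29+ arrays. By ILMN_1229397 the populations thus rank, from high to low, GFP+ CD24+/CD29lo, GFP- CD24+/CD29lo, GFP- CD24+/CD29+ and GFP+ CD24+/CD29+, and no neighbours in this order differed in the model of all 34 arrays or in the CD24+/CD29+ arrays alone. The first pair passed where the CD24+/CD29lo arrays were normalized on their own (1.50). Slc1a3, the glutamate and aspartate transporter GLAST, was higher in CD24+/CD29+ cells. Detection covered 4 of 10 GFP- and 3 of 9 GFP+ CD24+/CD29lo arrays and all 15 CD24+/CD29+ arrays, with differences of 2.16 in GFP- (SE 0.48, adjusted p = 0.00171) and 2.06 in GFP+ cells (SE 0.43, adjusted p = 8.78e-04). Slc1a2, the glutamate transporter GLT-1, has 5 probes, of which ILMN_3123195 alone passed. This probe was detected on 3 of 6 GFP- CD24+/CD29+ and 0 of 10 GFP- CD24+/CD29lo arrays, at least 1.62-fold higher (adjusted p = 0.0401). Its levels in GFP- CD24+/CD29+ cells ran from 4.62 to 7.63 (median 5.26).

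Slc1a4, the ASCT1 carrier of alanine, serine and cysteine, was lower in CD24+/CD29+ cells. Its levels were 8.76 to 10.08 (median 9.38) in GFP- CD24+/CD29lo and 6.85 to 8.08 (median 7.60) in GFP- CD24+/CD29+ cells, with no overlap. The difference was -1.86 (SE 0.50, limma adjusted p = 0.0107). In GFP+ cells it was -2.86 (SE 0.45, adjusted p = 1.69e-05), with levels of 8.84 to 10.09 and 4.51 to 9.99. Those populations overlapped, and Slc1a4 ranged wider in GFP+ CD24+/CD29+ cells than in the 3 others. The GFP+ difference was -1.36 (adjusted p = 0.158) in replicates 1 to 12 and -4.07 (adjusted p = 2.62e-06) in replicates 13 to 34.

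Among Slc7 genes, 2 of 5 tested cationic carriers were lower in CD24+/CD29+ cells without GFP. Slc7a2 ran from 6.62 to 9.87 (median 8.33) in GFP- CD24+/CD29lo and from 4.59 to 5.58 (median 4.73) in GFP- CD24+/CD29+ cells on ILMN_2642349, with no overlap and a difference of -3.38 (SE 0.49, limma adjusted p = 5.79e-06). ILMN_3038743 gave -1.82 (SE 0.43, adjusted p = 0.00383), and no other probe of Slc7a2 passed in this comparison. In the second array set alone, ILMN_3038743 gave -1.01 and did not pass (limma adjusted p = 0.246). ILMN_2642349 passed there with -3.20 (adjusted p = 8.79e-04). In GFP+ cells the Slc7a2 difference on ILMN_2642349 was 1.23 (SE 0.45, adjusted p = 0.0853). Slc7a4 was detected on 10 of 10 GFP- CD24+/CD29lo arrays and 2 of 6 GFP- CD24+/CD29+ arrays, which did not overlap, with a difference of -2.34 (SE 0.36, adjusted p = 1.43e-05). In GFP+ cells Slc7a4 was at least 1.85-fold lower in CD24+/CD29+ cells (adjusted p = 0.0047), detected on 0 of 9 against 6 of 9 arrays. Slc7a11, the light chain of the cystine and glutamate exchanger, was higher in GFP- CD24+/CD29+ cells. Probe ILMN_2948143 was detected on 5 of 6 of those arrays, at 4.91 to 8.46 (median 7.54), and on 2 of 10 GFP- CD24+/CD29lo arrays, at 4.41 to 5.20 (median 4.58), and differed by 2.35 (SE 0.50, adjusted p = 0.00122). ILMN_2740738 differed by 0.78 (SE 0.24, adjusted p = 0.0308). In GFP+ cells the Slc7a11 values of 0.84 (SE 0.46, adjusted p = 0.331) and 0.02 did not pass, and the difference between GFP- and GFP+ cells did not pass for either probe (adjusted p = 0.56 and 0.535). Slc3a2, the heavy chain that Slc7a11 pairs with, had means of 9.58 to 9.92 in the 4 populations and differed by -0.18 in GFP- (SE 0.29, adjusted p = 0.788) and -0.03 in GFP+ cells (SE 0.26, adjusted p = 0.973). Of 6 tested genes for exchanger chains, Slc7a11 was the 1 that passed, in GFP- cells.

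Several Slc6 genes were higher in CD24+/CD29+ cells whether or not GFP was on. Slc6a15, a carrier of branched-chain amino acids and proline known mainly from brain, ran from 5.93 to 8.84 (median 7.43) in GFP- CD24+/CD29lo and from 9.98 to 10.64 (median 10.32) in GFP- CD24+/CD29+ cells on ILMN_1245258. In GFP+ cells it ran from 5.12 to 8.93 and from 9.98 to 11.00. Neither pair overlapped, and the differences were 3.03 in GFP- (SE 0.42, limma adjusted p = 2.78e-06) and 2.95 in GFP+ cells (SE 0.39, adjusted p = 6.47e-07). A second Slc6a15 probe, ILMN_1228104, annotated to another transcript record, differed by -1.44 and -0.12 (adjusted p = 0.342 and 0.967). It followed the array set and not the gate, at 11.72 to 13.27 on the 12 arrays of the first set and 7.72 to 10.53 on the 22 of the second. Slc6a8 ran from 5.86 to 7.01 in GFP- CD24+/CD29lo and from 8.53 to 9.19 in GFP- CD24+/CD29+ cells, a difference of 2.31 (SE 0.20, adjusted p = 2.01e-10), and the GFP+ difference was 1.11 (SE 0.18, adjusted p = 3.06e-05). Slc6a6, which imports taurine, was 1.30 higher in GFP- (SE 0.39, adjusted p = 0.0261) and 2.54 higher in GFP+ cells (SE 0.35, adjusted p = 1.97e-06). In GFP+ cells its levels of 10.49 to 11.78 lay above those of CD24+/CD29lo cells, 6.89 to 9.91. Slc6a9, the glycine transporter GlyT1, was 1.63 higher in GFP+ cells (SE 0.46, adjusted p = 0.015) and its GFP- value of 1.09 (SE 0.50) did not pass (adjusted p = 0.189). Slc6a2, the noradrenaline transporter gene, and Slc6a17 passed in GFP- cells near background, with detection on 1 and 2 of 6 CD24+/CD29+ arrays and bounds of at least 1.02-fold and 1.07-fold higher (adjusted p = 0.0338 and 0.0285).

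Of the Slc38 genes, which code for carriers of glutamine and other neutral amino acids, 3 were higher in CD24+/CD29+ cells. Slc38a2, coding for SNAT2, was detected on all arrays and differed by 0.87 in GFP- (SE 0.18, limma adjusted p = 6.71e-04) and 0.74 in GFP+ cells (SE 0.16, adjusted p = 0.00134) on ILMN_2721692, and by 0.95 and 0.88 on ILMN_2955671. On ILMN_2721692 the GFP- levels, 9.41 to 10.26 and 10.50 to 11.02, did not overlap. Slc38a4, coding for SNAT4, ran from 4.69 to 5.82 and from 6.48 to 8.67 in GFP- cells, also with no overlap, and differed by 2.47 (SE 0.38, adjusted p = 1.58e-05) and, in GFP+ cells, by 1.55 (SE 0.35, adjusted p = 0.00201). Slc38a5, coding for SNAT5, was detected on 2 of 10 GFP- CD24+/CD29lo and 5 of 6 GFP- CD24+/CD29+ arrays. It differed by 3.45 (SE 0.60, adjusted p = 9.03e-05) and ranged widely, from 5.07 to 10.37, in GFP- CD24+/CD29+ cells. Its GFP+ difference of 1.04 (SE 0.55) did not pass (adjusted p = 0.304), and the difference between GFP- and GFP+ cells did not pass (2.41, adjusted p = 0.339). Slc38a1 went the other way. On ILMN_1219573 it was detected on 8 of 10 GFP- CD24+/CD29lo arrays and on 0 arrays of the 3 other populations, at least 1.92-fold lower in GFP- CD24+/CD29+ cells (adjusted p = 0.0123), and ILMN_2558167 gave -1.57 (SE 0.42, adjusted p = 0.0118). ILMN_2736140, the Slc38a1 probe annotated to a RefSeq messenger RNA, gave -0.79 (SE 0.42, adjusted p = 0.273).

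Slc43a3, whose product is known to carry purine bases, was lower in GFP- CD24+/CD29+ cells, by a difference of -1.96 (SE 0.64, limma adjusted p = 0.0443). Within replicates 13 to 34 it was -0.97 (adjusted p = 0.485). Slc43a2, a carrier of large neutral amino acids, differed by -0.36 in GFP- and -0.87 in GFP+ cells and did not pass (adjusted p = 0.723 and 0.251). Slc36a1 and Slc36a3 were detected on 10 and 7 of the 34 arrays and did not pass. Slc7a6os was 1.32 higher in GFP- CD24+/CD29+ cells (SE 0.41, adjusted p = 0.0343), but 0.72 within replicates 13 to 34 (adjusted p = 0.436).

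Because all GFP- CD24+/CD29+ arrays belong to the second set, the GFP- comparison was repeated within replicates 13 to 34. All 22 probes kept their sign there and 12 passed, beside 2145 of all 38697 tested probes. With the set as a term 16 passed, beside 3509 of all 35870 tested probes. Slc1a2, Slc6a2, Slc6a17, Slc7a6os, Slc43a3 and ILMN_2740738 of Slc7a11 did not pass with that term. In GFP+ cells, 8 of the 12 probes passed in the second set and 11 in the first. Over all probes, 1948 of 38697 and 3545 of 33501 tested there passed. Fibroblast markers were also higher in CD24+/CD29+ cells: of 6 tested markers, 3 passed in GFP- and 2 in GFP+ cells, with a summed linear level of 837 to 2348 in GFP- CD24+/CD29+ against 157 to 532 in GFP- CD24+/CD29lo arrays and 293 to 1305 against 172 to 533 in GFP+ arrays. The adipocyte sum ran from 269 to 4888 in GFP- CD24+/CD29+ and from 203 to 1742 in GFP- CD24+/CD29lo arrays, with Plin1, Cidec and Retn detected on no array of either population. Of the 4 tested adipocyte markers, Fabp4 was 2.31 and 2.65 higher in GFP- and GFP+ CD24+/CD29+ cells, while Lpl went the other way in GFP+ cells (-2.79, adjusted p = 0.00375), and the list medians were -0.01 and 0.13. Of the 5 macrophage markers Cd14 alone passed, with differences of -1.97 and -3.50. The hemoglobin gene Hba-a1 gave -0.97 in GFP- cells (adjusted p = 0.00447) and was detected on 7 of 34 arrays. None of 5 tested endothelial and 4 tested lymphoid markers passed in any comparison. The part of these cells in the transporter differences was not tested.

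Promoters are shown for 3 of these genes: Slc7a11 and Slc1a4, which hold the core of the amino acid response element, a DNA motif bound by ATF4 when amino acids run short, and Slc1a1, the member with the largest fitted gate difference, which does not. Windows of 300 bases, from 250 before the start of a gene to 50 after it, are from RefSeq (GRCm38.p6), and 49 of the 58 genes have at least 1. The motif searched was TGATGNAA on both strands, and capitals mark each match. Slc7a11 (chr3:50443564-50443863, minus strand) has 2 matches on opposite strands, which begin 66 and 47 bases before the start. Slc1a4 (chr11:20332664-20332963, minus strand) has 1, beginning 4 bases before it. Slc1a1 (chr19:28834885-28835184, plus strand) has none.
Slc7a11: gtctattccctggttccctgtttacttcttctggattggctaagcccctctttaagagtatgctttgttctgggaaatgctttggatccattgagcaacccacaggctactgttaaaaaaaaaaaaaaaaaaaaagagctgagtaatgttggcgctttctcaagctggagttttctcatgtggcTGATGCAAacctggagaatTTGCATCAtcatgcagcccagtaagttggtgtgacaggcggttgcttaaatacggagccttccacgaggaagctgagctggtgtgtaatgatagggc
Slc1a4: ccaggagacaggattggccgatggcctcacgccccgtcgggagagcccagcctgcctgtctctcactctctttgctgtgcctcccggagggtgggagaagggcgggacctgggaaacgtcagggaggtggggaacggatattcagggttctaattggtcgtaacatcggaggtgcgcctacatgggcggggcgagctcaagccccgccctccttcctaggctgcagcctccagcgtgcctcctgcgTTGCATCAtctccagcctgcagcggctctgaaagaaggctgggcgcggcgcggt
Slc1a1: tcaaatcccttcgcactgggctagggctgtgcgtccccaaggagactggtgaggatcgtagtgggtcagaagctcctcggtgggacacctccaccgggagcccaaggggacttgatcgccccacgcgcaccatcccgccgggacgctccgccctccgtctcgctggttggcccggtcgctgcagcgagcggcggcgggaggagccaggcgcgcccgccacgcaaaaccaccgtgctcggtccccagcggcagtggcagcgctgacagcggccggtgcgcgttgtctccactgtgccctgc
At least 1 match was found in 5 of 70 transporter windows (7.14%), of Slc1a4, Slc6a21, Slc7a7 and Slc7a11, and in 1304 of all 32851 windows (3.97%). Of these genes, Slc7a11 was higher and Slc1a4 lower in GFP- CD24+/CD29+ cells, and Slc6a21 and Slc7a7 passed in neither gate comparison. A link between the motif and these levels was not tested. A match is a description of these letters and not a site shown to be bound.

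Genes around the transporters were read from 4 lists. Of 20 tested enzymes of amino acid metabolism, 2 were lower and 0 higher in GFP+ CD24+/CD29lo cells, beside 0.802% and 0.229% of all probes: Arg2, arginase 2, which splits arginine, fell by 2.54 (SE 0.39, limma adjusted p = 0.00139), and Cdo1, cysteine dioxygenase, which starts the path from cysteine to taurine, also fell by 2.54 (SE 0.48, adjusted p = 0.00938). Their median difference was -0.14, beside 0.01 for all probes. Arg2 and Slc7a2, a transporter of its substrate, were both lower in this comparison, and a link between them was not tested. By gate, the CD24+/CD29+ side was higher for 5 enzymes and lower for 5 in GFP- cells, and for 6 and 3 in GFP+ cells. Over all probes, for this and the lists that follow, these shares were 5.29% and 5.04% in GFP- and 5.53% and 4.86% in GFP+ cells. Cdo1 differed by -3.47 and -2.11, Arg2 by -3.18 in GFP- cells, Arg1, arginase 1, by -2.81 and -1.66, and Glul, glutamine synthetase, by -2.23 and -1.61, while Gpt2, an alanine aminotransferase, differed by 1.54 and 2.29, and Oat, ornithine aminotransferase, by 1.28 and 2.18. Of 21 tested genes of the amino acid response and serine synthesis, 1 was higher and 2 lower in each gate comparison by 1 probe per gene (4 genes by any probe in each), and 0 passed between GFP+ and GFP- cells. Atf4 was 0.62 higher in GFP- CD24+/CD29+ cells (SE 0.20, adjusted p = 0.0448) but did not pass once the model held the set (adjusted p = 0.0703), and Nupr1, a stress-induced nuclear protein, differed by -4.11 and -5.53 (adjusted p = 2.23e-07 and 4.96e-11). Of 25 tested genes of mTORC1 amino acid sensing, 1 was lower in GFP- cells and 0 passed in GFP+ cells by 1 probe per gene, and 4 and 2 genes had any probe that passed. Lamtor4, a Ragulator subunit, gave -1.48 (SE 0.30, adjusted p = 7.62e-04). Of 9 tested other carriers, 1 was lower in each gate comparison: the peptide transporter gene Slc15a2, by -0.89 in GFP- and -2.18 in GFP+ cells, of which the first did not pass with the set as a term (adjusted p = 0.0546).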

How the data were processed

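Gene expression was measured in 34 samples of sorted MECs on Illumina WG-6 arrays after RNA amplification. The deposited intensity values are linear probe signals that the authors had not normalized, and the deposited fraction beside each is 1 minus its detection p. A separate deposited table holds log2 values that the authors processed with quantile normalization and, per the study's methods, a correction for collection dates; which of these steps made the table is not stated. The authors' notes name R 2.14.1.

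Signals were normalized with neqc (offset 16) of limma 3.58.1 in R 4.3.3: the arrays of a gate together for the GFP comparisons, and all 34 for gates, interaction and plotted levels. A probe was tested where at least 80% of the arrays of 1 population exceeded the 20th percentile of their array. Tests were two-sided limma fits without a batch term, adjusted by Benjamini-Hochberg over all tested probes at 0.05. Amplified RNA on 6 to 10 arrays a population limits the precision. Of 45281 probes, 34885 had 1 symbol, 18 several and 10378 none. No 2 arrays were identical, and 34 of 34 arrays correlated best with the processed column of the same sample. Named genes are members called in any comparison, those the study lists, the 2 of highest mean in each family, and at most 4 called genes of each other list and comparison; the probe of highest mean stands for a gene in counts by family, and Slc1a5, the detection counts of Slc36a3 and further probes of a named gene were added after their values were seen. Members, gene lists and tests were chosen with earlier results of these data known. Alternatives were uncorrected background, the deposited processed table, array set as a term or alone, other filters on dim probes, the methods' t-test, leaving out replicate 22 and a joint normalization. The steps were tested on simulated data. Promoters were read with Python 3.11.15.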

Additional observations from a re-analysis of the deposited data

Results flagged for a closer look

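The GFP difference of 3 transporters differed between the CD29 gates by a test of that difference (CD24+/CD29lo minus CD24+/CD29+, limma). It was 3.84 for Slc1a1, 1.20 for Slc6a8 and -4.61 for Slc7a2 (log2). The Slc6a8 value no longer passed under 4 of 8 alternatives and that of Slc1a1 under 2.

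Single arrays stood far from the others of their population in 8 of 96 populations of called probes checked by Dixon's test. Chance alone flags about 1 in 20 where values are normally distributed. Many of these values lie near background, where that rate need not hold. All 8 were the highest of their population. They were Slc1a1 (ILMN_1225873) at 5.35 on GFP- CD24+/CD29+ replicate 25, with the others at 4.46 to 4.61, and Slc1a2 at 5.72 on GFP+ CD24+/CD29+ replicate 32, with the others at 4.68 to 5.13. Slc1a3 was at 6.87 on GFP- CD24+/CD29lo replicate 6 (others 4.38 to 5.61), and Slc38a1 (ILMN_2558167) at 5.14 on GFP- CD24+/CD29+ replicate 21 (others 4.46 to 4.63). Slc38a5 was at 5.90 on GFP- CD24+/CD29lo replicate 14 (others 4.51 to 5.11), and Slc43a3 at 7.75 on GFP+ CD24+/CD29+ replicate 11 (others 4.49 to 5.43). Slc7a11 was at 6.25 on GFP- CD24+/CD29lo replicate 20 with ILMN_2740738 (others 4.50 to 4.76) and at 7.22 on GFP+ CD24+/CD29lo replicate 22 with ILMN_2948143 (others 4.43 to 5.30).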

How the results depend on the processing

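No paired analysis was possible because the replicate numbers run from 1 to 34 and no number is shared between populations. Over 40 called transporter results and their alternatives, 287 of 336 values kept their direction and passed, 49 kept it and no longer passed, 0 reversed, and 20 results passed under each alternative run. In the second array set alone, 0 transporter probes passed between GFP+ and GFP- CD24+/CD29lo cells, 12 between gates in GFP- cells and 1 for the difference between gates. Over all probes tested there, 70 of 35474, 2145 of 38697 and 39 of 38697 passed. With the methods' t-test, after Benjamini-Hochberg adjustment, 13 passed between gates in GFP- cells and 1 for the difference between gates. Over all 35870 tested probes these counts were 2914 and 82. An unadjusted t-test p under 0.05 was found for 26 and 15 transporter probes. A single set has fewer arrays, and the cause of these changes was not tested. Slc43a3 in GFP- cells no longer passed under 6 of 8 alternatives, and Slc1a2, Slc6a2 and the difference between gates of Slc6a8 under 4 (Slc6a2 of 7). The GFP difference of Slc1a1 in CD24+/CD29lo cells no longer passed in either set or with all arrays fitted together. Many dim transporters lie near background, where sizes depend on it. The counts between gates in GFP+ cells ran from 8 to 14, beside 12. Over all probes they ran from 1948 to 4471, beside 3725.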
